A study of Mus musculus with 28 samples.

Results

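The regions described here carried trimethylated lysine 9 of histone H3 (H3K9me3) in mouse lung tumours and held no peak of an active mark. They were chosen from the deposited peak lists on chromosomes 1 to 19. Bases covered in at least 3 of the 4 H3K9me3 lists were joined across gaps of up to 1 kb, and regions of 200 bp or more were kept. This gave 1578 H3K9me3 regions. Of these, 779 shared at least 1 base with a peak of H3K4me3, H3K27ac or H3K4me1 in at least 1 of the 12 lists of these marks, and 799 (50.6%) did not. The 799 regions without an active mark are the members, and the 779 others are called the regions with active marks.

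Tumours of 2 genotypes were studied. One was K-RasLSL-G12D, and the other, K-RasLSL-G12D;Mll4fl/fl, differed at the Mll4 gene. In both they were started with Ad-CMV-Cre, an adenovirus that delivers Cre recombinase. All mice thus carried the Cre-activated mutant K-Ras allele, and the second genotype also carried floxed alleles of Mll4, a methyltransferase of histone H3 lysine 4. The CMV promoter is active in many cell types, and which cells recombined was not measured here. Whether tumours were pooled and how old the mice were is not stated in the labels. Chromatin immunoprecipitation followed by sequencing (ChIP-seq) was run for 6 marks with 4 libraries each, numbered as replicates 1 to 4, beside 4 input samples that were not analysed here. Chromatin had been sheared to 250 to 500 bp. The labels do not assign any library to a genotype, so values are given by replicate number and the genotypes were not compared. Nothing in the labels says that the replicates came from separate animals, so the spread between them may be partly technical.

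H3K9me3 is a mark of heterochromatin. It is laid down by methyltransferases such as Setdb1 and Suv39h1 and is bound by HP1 proteins, and in mammals it is known for silenced retrotransposons, satellite repeats, imprinted loci and clusters of zinc finger genes. H3K27me3, the mark of the Polycomb repressive complexes, is found at silent developmental genes. H3K79me2 is laid down by Dot1l along the bodies of transcribed genes. H3K4me3 is typical of promoters, H3K4me1 of enhancers and H3K27ac of both when active. No gene annotation of the build of the files (mm9) was used, so regions are named by position, counted from 1.

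Some libraries stood apart, and membership depended on them. The H3K9me3 lists held 7302, 8533, 5224 and 11244 peaks in replicates 1 to 4, and sequencing depth is unknown. The H3K4me3 replicate 4 library touched 603 of the 779 regions with active marks, against 171, 309 and 301 for replicates 1 to 3. It was the only list to touch 244 of them. H3K27ac replicate 2 touched 225 regions, against 6, 30 and 21 for H3K27ac replicates 1, 3 and 4, and was alone at 29. H3K4me1 touched 26 regions in any library, and 2 of these had no other active mark. In all, 361 of the 779 regions (46.3%) were removed by 1 list alone. Without H3K4me3 replicate 4 the members would number 1043, without H3K27ac replicate 2 they would number 828, and without both 1094.

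The members were short. Their lengths ran from 200 to 4327 bp with a median of 446 bp and quartiles of 274 and 869 bp, and they summed to 535.2 kb, which is 0.0222% of the autosomal span. Of the 799, 436 were under 500 bp, 205 were from 500 bp to under 1 kb, 126 from 1 kb to under 2 kb and 32 were 2 kb or longer. The regions with active marks had a median of 1541 bp, a longest region of 16987 bp and a sum of 1848 kb. Length is set by the lists that chose the members, and a longer region has more bases that can touch a peak, so no test was made. With H3K4me3 replicate 4 left out of the exclusion the median was 530 bp.

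**Figure D1:**
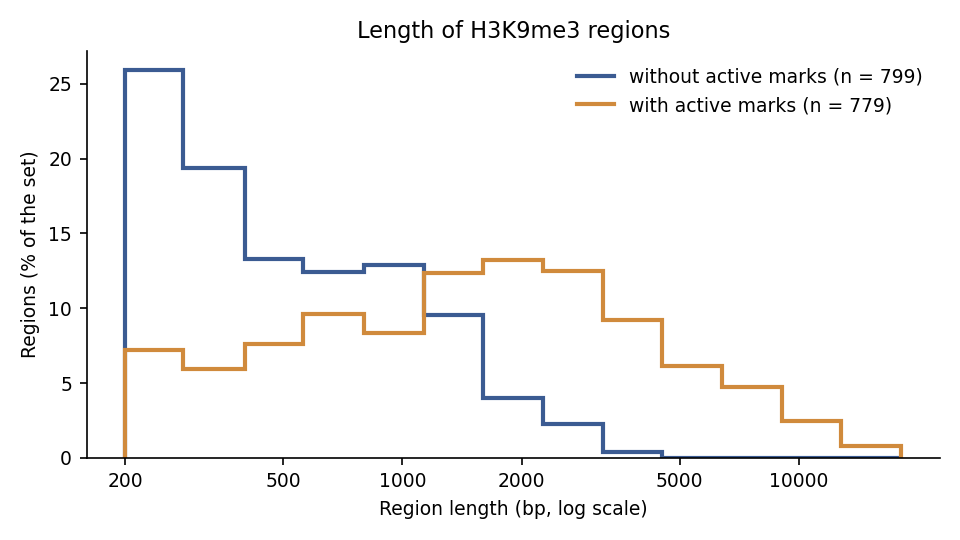
Percentage of H3K9me3 regions by length in bp (log axis), for the 799 regions without active marks and the 779 regions with them; each step is 1 length bin. The median lies at 446 bp in the first set and at 1541 bp in the second.

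At the lower limit, the members chr7:32019198-32019397 and chr10:78513968-78514167 were 200 bp long and chr17:50786863-50787063 was 201 bp. All 3 were covered in H3K9me3 replicates 1, 2 and 3 and not in replicate 4. Just under the limit lay chr4:145658802-145659000 and chr17:12370159-12370357, both of 199 bp, and chr9:22101792-22101989 of 198 bp, which also held no active mark. At the limit set by the active marks, the member chr15:97468611-97469759 directly abutted an active peak without sharing a base, and 10 bp and 21 bp separated chr13:67816289-67816677 and chr16:36235195-36235516 from one. The smallest overlaps among the removed regions were 10 bp at chr18:25351431-25351911, 23 bp at chr18:37062184-37062544 and 37 bp at chr13:67770658-67771660. Such close cases were few, with 11 members within 100 bp of an active peak and 10 of the 779 removed regions covered by active peaks over less than 10% of their length. The median cover of a removed region was 78.2%.

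Cover of the members by H3K9me3 peaks differed between libraries. Peaks of replicates 1, 2, 3 and 4 overlapped 785, 768, 568 and 636 members, and they covered 94.3%, 85.2%, 47.0% and 66.4% of the members' bases. Over the members, cover was thus lower in replicates 3 and 4 than in replicates 1 and 2. These lists chose the members, so the order is not a measure of signal. Replicate 4 held the most peaks and covered 0.244% of the autosomal span, against 0.239%, 0.163% and 0.0850% for replicates 1 to 3. A peak in 4 of 4 lists was found at 360 members (45.1%), against 61.7% of all H3K9me3 regions. The rule used these lists, so nothing is read from that count. Of the 439 members seen in 3 lists, the missing list was replicate 3 at 231, replicate 4 at 163, replicate 2 at 31 and replicate 1 at 14. Members in 4 lists had a median length of 793.5 bp and those in 3 lists 313 bp. For each region the highest of the authors' peak scores in a list was taken, which serves here only to rank peaks within that list. Over members with a peak, this highest score had a median of 190.3, 158.3, 77.9 and 111.2 in replicates 1 to 4. In the regions with active marks it was 495.8, 423.1, 175.8 and 361.9, higher in each list. These regions were longer (median 1541 bp against 446 bp) and can hold more peaks, and the same lists chose the regions. The order of the scores was not tested.

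The longest member was chr4:151874746-151879072, at 4327 bp. H3K9me3 peaks covered 4319, 3807, 3422 and 3681 bp of it in replicates 1 to 4, so all libraries marked most of its length. It lay 21.8 kb from the nearest active peak and 1069 bp from another member. The next in length was chr5:105308172-105312412 (4241 bp), where the covered length fell from 3950 and 2562 bp in replicates 1 and 2 to 1868 and 498 bp in replicates 3 and 4. The third, chr17:13405884-13409912 (4029 bp), was covered over 3696, 2734, 2757 and 3894 bp and stood alone, with the next H3K9me3 region 325749 bp away.

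The remaining 7 of the 10 longest members were between 2605 and 3091 bp. A pair on chromosome 1, chr1:90109151-90111755 and chr1:90113488-90116578, lay 1732 bp apart. The first was covered whole in replicates 1, 2 and 3 and not at all in replicate 4, and the second was covered over 3091, 3072, 936 and 2463 bp. Chromosome 5 held 4 of the 7, at chr5:39063194-39065958, chr5:105256010-105258963, chr5:110368122-110371003 and chr5:141193464-141196134. The last of the 10, chr1:123392024-123394806, lay more than 1 Mb from any other H3K9me3 region. None of the 10 longest members held an H3K79me2 or H3K27me3 peak in any library. Neither mark was found in any library at 80.5% of all members and at 79.1% of members of 1 kb or longer. Absence of both marks was thus common among members, and its link with length was not tested.

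Members were found on every autosome, at 1.41 per 10 Mb on chromosome 3 to 6.94 per 10 Mb on chromosome 17, with a median of 3.44. Chromosome 5 held 70 members, the largest number, and chromosome 17 held 64 on a span of 92.3 Mb. Chromosome 5 also held 74.0 kb of member sequence and the highest median length (728.5 bp). The share of H3K9me3 regions that were members differed between chromosomes. It was 75% on chromosome 14 (24 of 32 regions) and 65.8% on chromosome 11 (48 of 73), but 35.5% on chromosome 13 (33 of 93) and 36.3% on chromosome 18 (33 of 91). Along a chromosome, the final 10% of the span, which lies away from the centromere in the mouse, held 132 members (16.5%). The initial 10% held 79 (9.89%), and the steps between held 7.88% to 11.9% each. Of the regions with active marks, 16.3% lay in the final 10%.

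**Figure D2:**
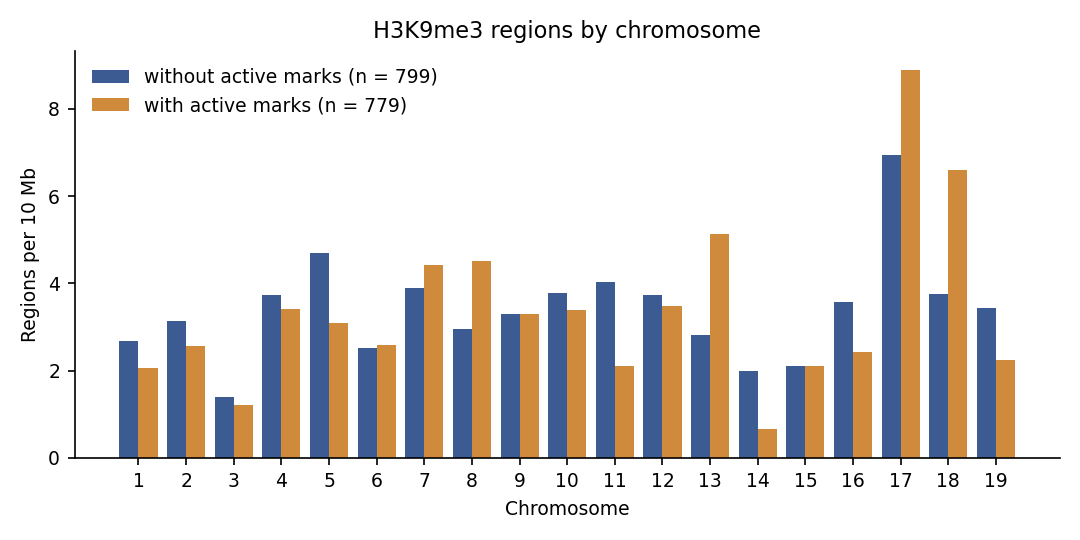
Number of H3K9me3 regions per 10 Mb of the span between the first and last peak of each autosome, for regions without and with active marks. Chromosome 17 is highest in both sets, at 6.94 and 8.89 per 10 Mb, while chromosomes 11 and 14 hold more regions without active marks and chromosomes 13 and 18 more with them.

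Most members stood alone at the scale of 100 kb. The nearest other member was at most 100 kb away for 256 members (32.0%), and the median distance was 326.4 kb. Among the regions with active marks 415 (53.3%) had a neighbour of their own kind within 100 kb, at a median distance of 57.4 kb. Any other H3K9me3 region lay within 100 kb of 355 members (44.4%), against 53.7% of all H3K9me3 regions. Spacing follows from how regions were cut: with no gaps closed 63.7% of members had a member neighbour within 100 kb, and with gaps of up to 5 kb closed 18.2% did. No test over regions was made.

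Runs of at least 3 members with successive gaps of up to 100 kb formed 27 clusters, which held 116 members (14.5%) on 14 chromosomes. Of the 27, 12 had 3 members and 11 had 5 or more. Their spans ran from 9.57 to 479.8 kb with a median of 77.7 kb. Regions with active marks were interspersed in 17 clusters, 82 regions in all, and 10 clusters held no such region. Active peaks outside H3K9me3 regions could still lie in these 10 clusters. On chromosome 7, H3K27ac covered 1.20%, 1.03%, 18.9% and 12.3% of such a cluster in replicates 1 to 4, while a cluster on chromosome 10 held no active peak. Chromosome 17 had 4 clusters with 27 members.

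The largest cluster, chr17:21954881-22434717, held 12 members and 16 regions with active marks over 479.8 kb. The members added up to 8938 bp (1.86% of the span), and the regions with active marks to 51931 bp. H3K9me3 peaks covered 24.2%, 14.0%, 8.80% and 7.43% of the cluster in replicates 1 to 4, and H3K4me3 peaks covered 0.375%, 7.01%, 1.60% and 11.6%. H3K4me3 cover of the cluster was thus higher in replicates 2 and 4 than in replicates 1 and 3. Over the autosomal span these libraries covered 0.130%, 1.34%, 1.10% and 1.33% in replicates 1 to 4, so the low cover of replicate 1 was not limited to the cluster. Of its 12 members 6 were seen in all 4 H3K9me3 lists, and the longest was chr17:22272780-22274732 (1953 bp), with 1784, 1259, 909 and 0 bp covered in replicates 1 to 4. H3K79me2 peaks of all 4 libraries covered chr17:22091667-22092035 and chr17:22122353-22122693 over their whole length, and touched none of the other members. No H3K27me3 peak lay anywhere in the cluster in any library. Of all 27 clusters, 2 had a member with H3K27me3 in any library.

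**Figure D3:**
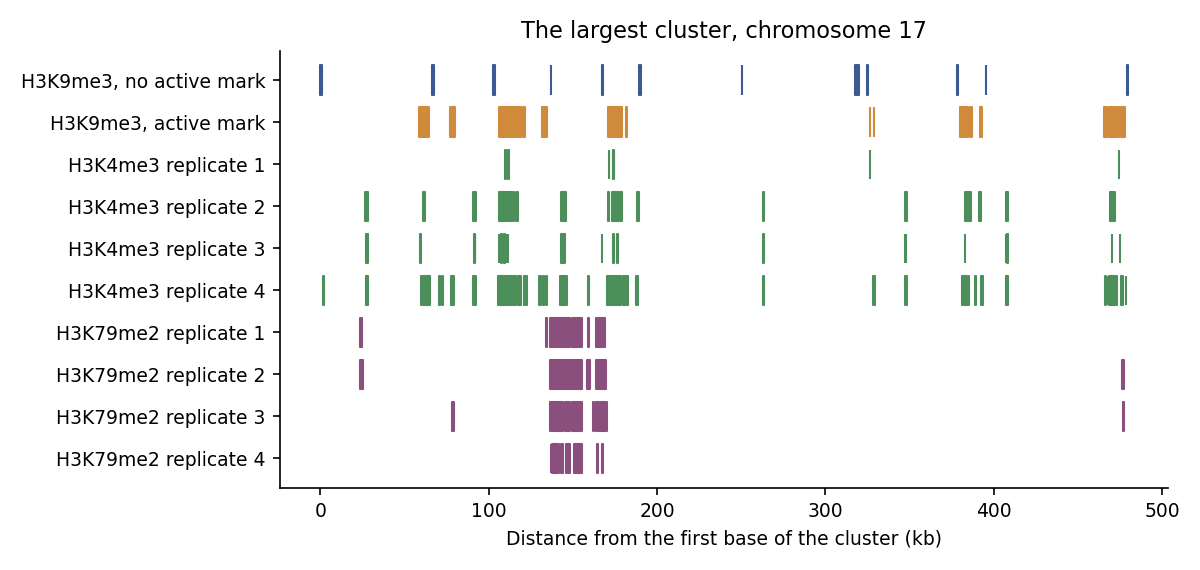
Map of the largest cluster on chromosome 17, with distance from its first base in kb. Rows show the 12 members, the 16 regions with active marks, and the H3K4me3 and H3K79me2 peaks of each library; bars are to scale with a minimum drawn width. H3K4me3 peaks are densest in replicate 4, and a block of H3K79me2 is shared by all 4 libraries.

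The next in number of members were 2 clusters of 6, and 8 clusters held 5 each. In chr5:105180446-105312412, 6 members made up 11337 bp of 132.0 kb (8.59%) and included the second longest of all, and none held H3K79me2 or H3K27me3. The cluster chr10:81466604-81570593 also had 6 members, which summed to only 3199 bp beside 19948 bp of regions with active marks. Its longest member was chr10:81569129-81570593 (1465 bp). Of the 8 clusters of 5, the 2 that come first by position are described. At chr4:147129476-147179162, 5 members summed to 3455 bp of 49.7 kb (6.95%) beside 2 regions with active marks, and the longest was chr4:147129476-147130617 (1142 bp), covered over 653, 692, 600 and 0 bp by H3K9me3 in replicates 1 to 4. At chr5:110364695-110471286, all 5 members were seen in 4 of 4 H3K9me3 lists and summed to 7176 bp of 106.6 kb (6.73%), beside 1 region with active marks of 581 bp. Its longest member was chr5:110368122-110371003 (2882 bp), covered over 2024, 1365, 1222 and 931 bp. Neither of these 2 clusters held an H3K79me2 peak, and no library had an H3K27me3 peak in any of the 5 clusters described.

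H3K79me2, the mark of transcribed gene bodies, was not used to choose the members. Its peaks overlapped 56, 71, 54 and 53 members in replicates 1 to 4, or 7.01%, 8.89%, 6.76% and 6.63%. Among the regions with active marks they overlapped 15.1%, 17.7%, 18.1% and 12.7%. Replicate 2 was the highest over members and replicate 4 the lowest in both sets, and the 2 sets did not overlap. The difference, members minus regions with active marks, was -8.60 ± 2.17 percentage points (SD, n = 4 libraries) and negative in 4 of 4. The exact two-sided sign-flip permutation p was 0.125, the smallest this design can give, and 0.188 after Benjamini-Hochberg adjustment over 3 tests, so it could not pass 0.05. The size depended on the measure: it was -8.63 for regions of 200 to 1000 bp, -5.11 when at least 50% of a region had to be covered and -2.74 by share of region bases. It was -13.4 with 2 of 4 H3K9me3 libraries required, -5.68 with 4 of 4, and -5.70 when an active mark had to be in at least 2 of its libraries.

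The difference shrank when the H3K27ac replicate 2 library was left out of the exclusion. It was then -2.87, -3.98, -6.18 and -1.97 percentage points in H3K79me2 replicates 1 to 4, with a mean of -3.75. Of the 29 regions that this step adds to the members, 23 held H3K79me2 in at least 3 libraries, against 105 of all 779 regions with active marks (13.5%). With H3K4me3 replicate 4 left out instead, the mean was -10.6, and with both left out it was -3.81. Without replicate 1 of all marks the mean difference was -4.95, and without replicate 2 it was 0.0812, with the sign the other way (exact permutation p 1.00).

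**Figure D4:**
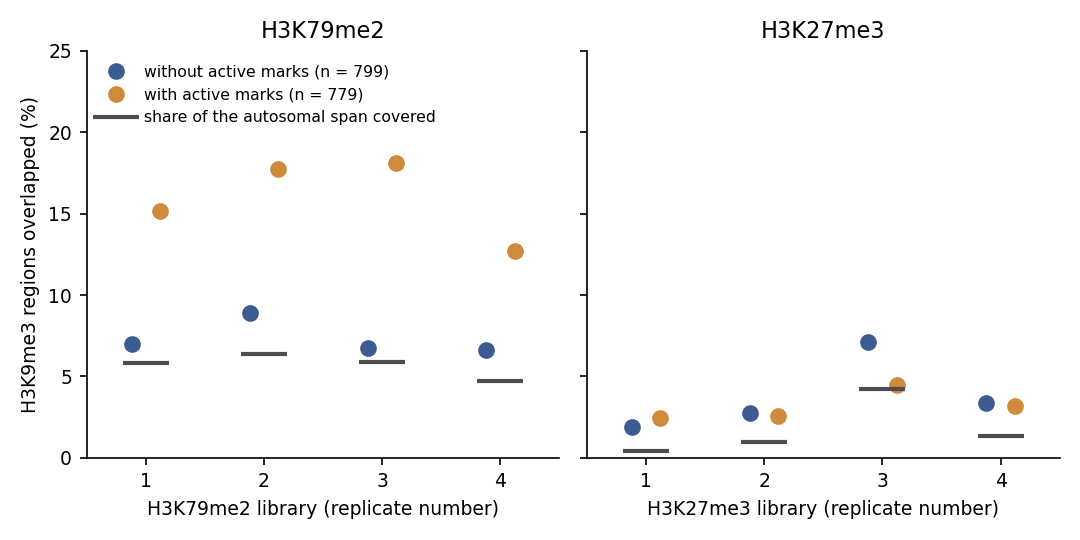
Percentage of H3K9me3 regions that share at least 1 bp with an H3K79me2 peak (left) or an H3K27me3 peak (right) of each library, for regions without and with active marks; bars give the share of the autosomal span, in bases, that the library covers. The H3K79me2 shares of the members (6.63% to 8.89%) all lie under those of the regions with active marks (12.7% to 18.1%), and the H3K27me3 shares of the sets are close except in replicate 3.

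H3K79me2 was called in at least 3 of 4 libraries at 47 members (5.88%), against 9.63% of all H3K9me3 regions. In 4 of 4 it was called at 29 members (3.63%), against 6.46% of all H3K9me3 regions. At least 1 library had it at 96 members (12.0%), against 17.6% of all H3K9me3 regions. Each of these shares of the members was below that over all regions. The share in at least 3 libraries hardly changed with length, at 5.50% of members under 500 bp, 6.34% from 500 bp to under 1 kb and 6.33% from 1 kb. The 47 members were mostly embedded in H3K79me2, since their median cover was 100% in each library. Their median distance to an active peak was 1.78 kb, against 8.20 kb for the 643 members with neither H3K79me2 nor H3K27me3 in any library, and 45 of the 47 lay within 10 kb of one.

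The longest of the 47 was chr5:106240822-106243155 (2334 bp). H3K79me2 covered it over 2334, 2334, 2334 and 2169 bp in replicates 1 to 4, nearly the whole region in all libraries. H3K9me3 covered 2334, 2318, 1882 and 2334 bp of it, the least in replicate 3. An active peak lay 1242 bp away. The region chr6:125056606-125058106 (1501 bp) was covered whole by H3K79me2 in all 4 libraries and over 1501, 1425, 957 and 1391 bp by H3K9me3. Whole cover by H3K79me2 in all 4 libraries was also seen at chr9:114313662-114315116 (1455 bp), which lay only 176 bp from an active peak. At chr2:33633104-33634512 (1409 bp) H3K9me3 was missing in replicate 3, and H3K79me2 covered 1409, 1409, 1409 and 1213 bp. The fifth, chr4:65274286-65275665 (1380 bp), had no H3K79me2 in replicate 4.

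H3K27me3, the Polycomb mark, overlapped 15, 22, 57 and 27 members in replicates 1 to 4. These were 1.88%, 2.75%, 7.13% and 3.38% of the members, against 2.44%, 2.57%, 4.49% and 3.21% of the regions with active marks. Replicate 3 was high in both sets, and its H3K27me3 peaks covered 4.24% of the autosomal span, against 0.449%, 0.983% and 1.35% for the others. The difference was 0.61 ± 1.40 percentage points (SD, n = 4), smaller than the spread between libraries, and positive in 3 of 4 (exact two-sided sign-flip permutation p 0.625, adjusted 0.625). Its sign differed with how regions were weighted and limited. By share of bases it was 2.07 and positive in 4 of 4 libraries (exact permutation p 0.125), and for regions of 200 to 1000 bp it was -2.71 and negative in 4 of 4 (exact permutation p 0.125).

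At least 3 libraries had H3K27me3 at 17 members (2.13%), near the 2.22% of all H3K9me3 regions. In 1 library or more it was seen at 61 members (7.63%, against 6.65%), and 25 of these were marked in replicate 3 only. The 17 members were long, with a median of 1087 bp, and 10 of them were 1 kb or longer. The share of members with H3K27me3 in at least 3 libraries was 0.688% under 500 bp and 6.33% from 1 kb, while for the regions with active marks it was 4.79% under 500 bp and 1.39% from 1 kb. These shares rest on 3 and 10 members and on 7 and 7 regions with active marks, and the opposite order was not tested. Chromosome 11 held 4 of the 17, beside 48 of all 799 members, and chromosome 5 held 3, beside 70 of all 799. Of the members 1, chr2:130305114-130305362, had both H3K79me2 and H3K27me3 in any library, and none had both in at least 3. Among all 1578 H3K9me3 regions 5 had both in any library, and none had both in at least 3.

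The longest of the 17 was chr9:61716580-61718357 (1778 bp), with 0, 1055, 1049 and 1343 bp under H3K27me3 in replicates 1 to 4. Cover was also missing in replicate 1 at chr11:95499500-95501192 (1693 bp; 334, 1250 and 912 bp in replicates 2 to 4) and at chr5:67475048-67476648 (1601 bp; 576, 1283 and 233 bp). All 4 libraries marked chr3:96166364-96167810 (1447 bp), over 615, 299, 1104 and 301 bp, and chr7:17470787-17472218 (1432 bp), over 363, 576, 1432 and 961 bp. Replicate 1 thus had no cover at 3 of these 5 regions, and the covered lengths differed between the other libraries without 1 order for all regions. No H3K79me2 peak lay in any of them.

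Because H3K79me2 and H3K27me3 cover very different lengths, each was set against its own share of the autosomal span. H3K79me2 covered 6.23%, 7.70%, 5.51% and 5.31% of the members' bases and 5.80%, 6.39%, 5.87% and 4.74% of the span in replicates 1 to 4, which is 1.07-fold, 1.20-fold, 0.938-fold and 1.12-fold. H3K27me3 covered 1.16%, 2.11%, 6.43% and 2.96% of the members' bases, which is 2.55-fold, 2.13-fold, 1.52-fold and 2.20-fold its share of the span. The surroundings of the members also carried H3K27me3, at 3.00% ± 2.40 of member centres and 3.68% ± 3.13 of positions 40 to 50 kb away (SD, n = 4), and the centres were higher than the surroundings in replicate 1 only. The folds of the H3K27me3 libraries all lay above those of the H3K79me2 libraries. Their log2 values differed by 0.93 ± 0.24 (SD of the differences by replicate number, n = 4), with an exact two-sided permutation p of 0.029, the smallest for 4 libraries against 4. After adjustment it was 0.0857, the smallest that could be reached, so it did not pass 0.05. The value depended on single libraries and on the rule. Without replicate 2 of all marks it was -0.39, with the sign the other way, and without replicate 1 it was 0.32. With only the exclusion changed it was 0.33 without H3K27ac replicate 2, 0.38 without H3K4me3 replicate 4, and -0.10 when an active mark had to be present in at least 2 of its libraries. It was 0.41 for regions of 200 to 1000 bp, 0.50 with no gaps closed, 0.48 with peaks that reached their mark's median score and 0.61 with 4 of 4 H3K9me3 libraries required.

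Around the members, H3K79me2 was lower than farther out, with a small rise at the centre itself. It covered 6.63% ± 1.16 of member centres, on average 5.26% and 4.97% of positions 1 kb to either side, 5.85% ± 1.36 of positions 5 kb away and 9.35% ± 1.41 of positions 40 to 50 kb away (SD, n = 4 libraries). The value at the centre was below that at 40 to 50 kb in each library: 6.63% against 9.66%, 8.26% against 10.8%, 5.63% against 9.55% and 6.01% against 7.40% in replicates 1 to 4. With H3K27ac replicate 2 left out of the exclusion the values were 9.30% against 9.56%, 10.7% against 10.7%, 8.33% against 9.47% and 7.97% against 7.35%, so the centre was no longer lower in every library. Positions 1 kb to either side stayed lower in all 4, at 6.88%, 8.57%, 6.94% and 4.89%. With H3K4me3 replicate 4 left out instead, the centre stayed lower in all 4 libraries, with differences of -3.23, -2.43, -3.73 and -1.53 percentage points. Around the regions with active marks H3K79me2 was instead higher at the centre (12.1% ± 2.06) than at 40 to 50 kb (9.25% ± 1.43). H3K27me3 at 40 to 50 kb from the members covered 1.06%, 2.19%, 8.17% and 3.29% of positions in replicates 1 to 4, and 0.496%, 0.934%, 3.73% and 1.46% around the regions with active marks. It was thus higher around members in each of the 4 libraries. At the member centres themselves it covered 1.38%, 1.502%, 6.51% and 2.63%, lower than at 40 to 50 kb in replicates 2, 3 and 4. These profiles were not tested.

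**Figure D5:**
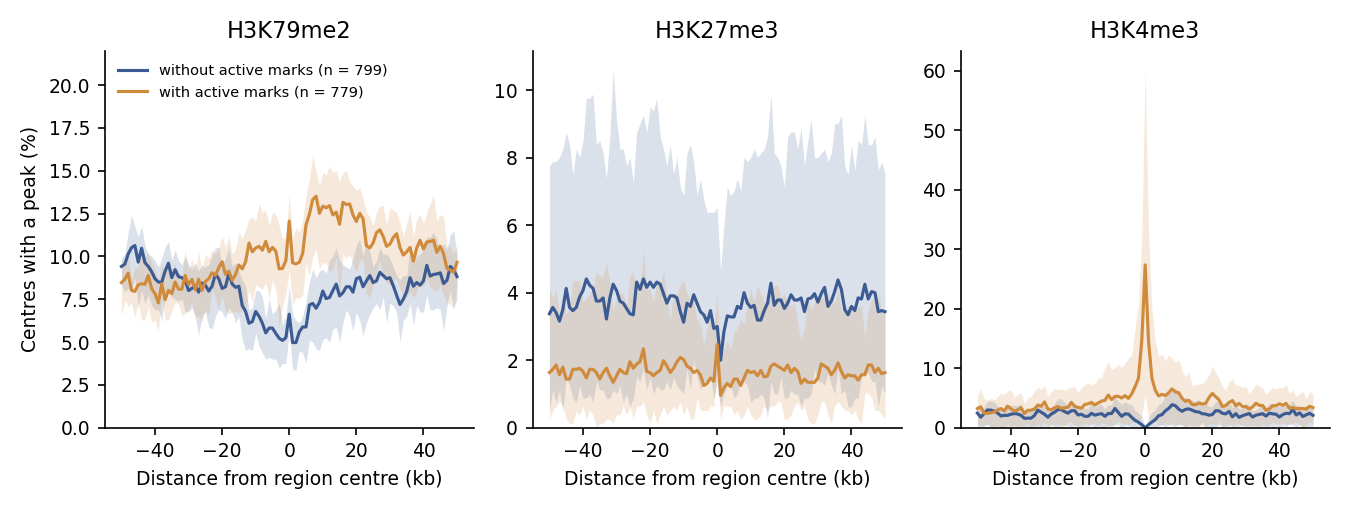
Percentage of region centres with a peak at each distance from the centre, in 1 kb steps out to 50 kb, for H3K79me2, H3K27me3 and H3K4me3; lines are means of 4 libraries and bands run from the lowest to the highest library. Around regions without active marks H3K79me2 falls from 9.35% at 40 to 50 kb to 5.26% and 4.97% at 1 kb either side of the centre and is 6.63% at the centre, where the value depends on H3K27ac replicate 2, and H3K4me3 is 0 at the centre by the rule.

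The distance to active peaks is partly fixed by the rule, which used the same 12 lists, so it is described without a test. An H3K4me3, H3K27ac or H3K4me1 peak of some library lay within 1 kb of 88 members (11.0%), within 10 kb of 479 (59.9%) and within 50 kb of 741 (92.7%), at a median distance of 7.09 kb. Of the bases of the span, 13.5%, 33.7% and 57.9% lay within 1, 10 and 50 kb of such a peak or inside one. At 5 kb against 40 to 50 kb, H3K27ac covered 2.22% ± 2.02 against 3.97% ± 3.00 of positions, H3K4me1 1.20% ± 0.643 against 2.23% ± 0.862 and H3K4me3 2.27% ± 1.58 against 2.35% ± 1.56 (SD, n = 4). H3K4me3 was higher at 5 kb in replicates 1 and 4 and lower in replicates 2 and 3, and at 10 kb its mean was 2.77%. The median distance to an H3K79me2 peak of any library was 27.03 kb and that to an H3K27me3 peak 60.2 kb. The word heterochromatin stands here for a combination of marks, since compaction and transcription were not measured.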

How the data were processed

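The 24 deposited files are the authors' peak lists, 1 per antibody library, with a position and a score for each peak. Bowtie, MACS, CASAVA 1.7, deepTools and build mm9 are named per the submitters' processing notes; other versions, settings and the use of inputs are not given in the sources used here. The deposited score has a floor of 50.00 to 50.04 in all lists and served for ranking within a list and for 1 alternative. Depth is unknown, and lists from deeper libraries can hold more peaks. The reference gene table is on GRCm38, which ends before the last peak of chromosome 7, and was not used.

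Regions were built and overlaps counted (1 bp or more) in Python 3.11.15 with NumPy 2.4.6 and pandas 2.3.3, and the steps were tested on simulated lists. The autosomal span runs from the first to the last peak base of each chromosome. Enrichment is log2 of the percentage of member bases over that of the span, with a pseudocount of 0.01 percentage points. The profile without H3K27ac replicate 2 was added after seeing the data. Alternatives (thresholds, gaps, lengths, left-out libraries) are in the closing section. Exact sign-flip and permutation tests used libraries as units, and p-values were adjusted over 3 tests. The members and lists were chosen with earlier results of these data known. Named regions are the 10 longest members, the 5 clusters with most members (ties by position) and the longest member of each, the 5 longest members with H3K79me2 or with H3K27me3 in at least 3 libraries, and the 3 on either side of the length limit. The regions nearest the active-mark limit and in the largest cluster, and the region with both H3K79me2 and H3K27me3, were added after their values were seen.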

Additional observations from a re-analysis of the deposited data

Results flagged for a closer look

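Dixon's test was applied to 13 groups of 4 libraries; it flags about 1 in 20 groups by chance, and here 2 libraries exceeded the 95% critical value. H3K79me2 replicate 2 overlapped 8.89% of the members, against 6.63% to 7.01% for the other H3K79me2 libraries. H3K27ac replicate 2 overlapped 225 of the H3K9me3 regions, against 6 to 30 for the other H3K27ac libraries. On the X chromosome, which the selection leaves out, the same steps gave 18 H3K9me3 regions, and 10 of them held no active mark (median length 363 bp). The H3K9me3 lists held 75, 113, 53 and 38 peaks there in replicates 1 to 4.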

How the results depend on the processing

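The number of members moved from 799 to 2095 with 2 of 4 H3K9me3 libraries required, 256 with 4 of 4, 1269 with no gaps closed, 363 from 500 bp, 1211 when an active mark had to be in at least 2 of its libraries, and 289 to 661 without 1 replicate number, where all 3 remaining H3K9me3 libraries were required. In that order the median length was 516, 360, 314, 920, 570 and 352 to 450 bp, and the share with a member within 100 kb was 43.6%, 19.9%, 63.7%, 14.6%, 44.5% and 21.1% to 39.6%. With only peaks that reached their mark's median score these were 649 bp and 44.6%, without H3K4me3 replicate 4 in the exclusion, an alternative chosen after seeing the data, 530 bp and 41.4%, with 5 kb gaps 18.2%, and within 1 Mb 68.1%. The H3K79me2 difference ran from -8.77 to 0.0812 without 1 replicate number, the latter without replicate 2, and was negative, at -13.4 to -2.74, in every other alternative run. The H3K27me3 difference changed sign with 2 of 4 libraries (-1.29), at the median score (-0.74), with active marks in at least 2 libraries (-0.0740), without H3K4me3 replicate 4 (-0.81) and at 200 to 1000 bp (-2.71), and was 0.75 to 1.11 without 1 replicate number. With H3K27ac replicate 2 and H3K4me3 replicate 4 both left out of the exclusion, the H3K27me3 difference was also negative, at -1.16. It was largest from 500 bp (2.97, exact permutation p 0.125) and was 1.67 with 4 of 4 libraries. The log2 contrast of H3K27me3 with H3K79me2 changed sign with active marks in at least 2 libraries (-0.10) and ran from -0.39 (without replicate 2) to 0.88 without 1 replicate number. With the replicate number as a block it was 0.93 (exact sign-flip permutation p 0.125, adjusted 0.188), and no test passed the adjusted threshold with or without the block. Over H3K9me3 regions, deviations of same-numbered H3K79me2 and H3K27me3 libraries correlated at -0.0666 to 0.0646, and 3 of 8 libraries correlated best with their own number, so the numbers were not taken to pair the samples. Members with H3K79me2 in at least 3 libraries, 5.88%, were 3.87% with 2 of 4 H3K9me3 libraries, 4.13% at the median score, 8.42% with active marks in at least 2 libraries and 8.45% without H3K27ac replicate 2. They were 12.0% for at least 1 library and 3.63% for 4 of 4. Members with H3K27me3 in at least 3 libraries, 2.13%, were 3.86% from 500 bp, 1.09% at 200 to 1000 bp and 7.63% for at least 1 library. The causes were not tested. Depth is unknown, so weak peaks missed in shallow lists cannot be told apart from absent marks.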

Other observations

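Members in clusters differed from the others in their surroundings. The 116 members in clusters had a median length of 451 bp and the 683 outside 446 bp. A median of 302.1 kb separated clustered members from the nearest H3K27me3 peak of any library, and 44.4 kb separated the others. Within 50 kb of such a peak lay 10.3% of the clustered members (12 of 116) and 53.1% of the others (363 of 683). For H3K79me2 the shares within 50 kb were 61.2% and 64.9%. Active peaks were nearer to clustered members, at a median of 2.44 kb against 8.12 kb. Clusters were defined from the same regions and share chromosomes, so these are descriptions without a test.

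By the same steps the Y chromosome gave 5 H3K9me3 regions, of which 4 held no active mark.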
